A study of Mus musculus with 9 samples.

Results

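Lipopolysaccharide (LPS) is the endotoxin of the outer membrane of Gram-negative bacteria, and its injection into the abdomen raises inflammatory cytokines in blood and brain. Small RNA of the hippocampus was sequenced to learn which miRNAs differed between mice given LPS and mice given saline. The comparison used 6 of the 9 libraries of the series, all from C57BL/6J mice that the study's methods describe as adult males. The saline group (3 libraries) received 0.9% saline. The LPS group (3 libraries) received a single intraperitoneal injection of 1 mg/kg LPS, and its labels add an equal volume of 0.12% saline. The saline strength named in the labels thus differed between the groups, while the study's methods name sterile saline as the solvent and give no strength for it. Whether the strength truly differed is not known, and if it did, it cannot be told apart from LPS. The study's methods place tissue collection after behaviour tests, and do not say how long after LPS the sequenced hippocampi were taken. The LPS + GAS group (3 libraries) had the same LPS dose and 100 mg/kg gastrodin, a phenolic glucoside, 1 h later. It entered the filter on low counts, the scaling and the shared estimate of the spread, but not the contrast. The deposited count table lists 1448 mature miRNAs, and the 628 that reached 10 reads in 3 or more of the 9 libraries were tested. The labels do not say whether the libraries of a group came from separate mice, so p-values measure the spread between these libraries.

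A miRNA is cut from a hairpin precursor, first by Drosha in the nucleus and then by Dicer in the cytoplasm. Either arm of the hairpin, the 5p or the 3p strand, can be loaded into an Argonaute protein, and the arm that is not loaded is usually degraded quickly. The loaded strand finds its target mRNAs mainly through its seed, bases 2 to 8, so miRNAs with the same seed form a family with overlapping targets. Neighbouring hairpins are often cut from a single transcript and are then called a cluster. Many miRNAs are restricted to a cell type, such as miR-124 in neurons, miR-219 in oligodendrocytes and miR-223 in myeloid cells. LPS acts on TLR4, and in macrophages and microglia the NF-kB factors downstream of it are known to induce miR-155, miR-146a and miR-21.

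The libraries held 10119758 to 11457656 reads on miRNAs, so that 10 reads are close to 1 CPM (reads per 1000000). The 10 most abundant miRNAs took 55.0% to 58.1% of the reads in each of the 6 libraries. Scaling factors (TMM) ran from 0.914 to 1.19, and LPS replicate 2 had the highest. Saline replicate 1 and LPS replicate 1 stood apart by high levels of choroid plexus miRNAs, described below with the cell-type lists. Levels are given as CPM scaled by TMM, and changes as fitted log2 fold changes of LPS minus saline with their standard errors. The call rule took the study's thresholds, an adjusted p no higher than 0.05 together with a log2 fold change of 1 or more in either direction.

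The mature sequences of miRNAs described below are shown here, 5′ to 3′, with the seed in capitals. Both arms of miR-21a and of miR-322 come first, because the 3p arm stood higher with LPS and the 5p arm did not.
miR-21a-3p: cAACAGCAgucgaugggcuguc
miR-21a-5p: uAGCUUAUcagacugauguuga
miR-322-3p: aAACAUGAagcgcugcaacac
miR-322-5p: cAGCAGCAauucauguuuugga
The next 4 had all LPS libraries above all saline libraries.
miR-495-3p: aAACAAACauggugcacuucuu
miR-7b-3p: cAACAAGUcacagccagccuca
miR-329-3p: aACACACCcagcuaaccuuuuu
miR-135a-1-3p: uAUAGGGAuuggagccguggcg
The last group is shown because its reads were near 0 in some libraries of a group and high in others. The mature forms of miR-107-3p and miR-103-3p are given beside them, as they share a seed and differ only near the 3′ end.
miR-532-5p: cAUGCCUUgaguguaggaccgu
miR-532-3p: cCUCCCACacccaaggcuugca
miR-744-5p: uGCGGGGCuagggcuaacagca
miR-669c-5p: aUAGUUGUguguggaugugugu
miR-297c-5p: aUGUAUGUgugcauguacaugu
miR-107-3p: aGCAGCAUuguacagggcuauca
miR-103-3p: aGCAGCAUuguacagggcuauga

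Across the 628 miRNAs, 0 (0%) passed the call rule in edgeR's quasi-likelihood test, and the lowest adjusted p was 0.150. At an unadjusted p under 0.05 there were 15 (2.39%), of which 8 were higher with LPS (1.27%) and 7 were lower (1.11%). DESeq2's Wald test called 1 miRNA, miR-21a-3p, and limma-voom called 0. At the same thresholds the study lists 8 miRNAs for LPS against saline, and its methods give no filter on low counts. A fitted log2 fold change of at least 1 was seen for 5 miRNAs (0.796%), and of at most -1 for 3 (0.478%). In 24 miRNAs (3.82%) the 3 LPS and the 3 saline libraries did not overlap, 12 (1.91%) with LPS above and 12 (1.91%) with LPS below. The median log2 fold change was -0.04, with 267 miRNAs higher (42.5%) and 361 lower. With DESeq2's size factors the median was 0.01, with 335 higher (53.3%) and 293 lower, so the balance of higher and lower miRNAs depended on the scaling.

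**Figure D1:**
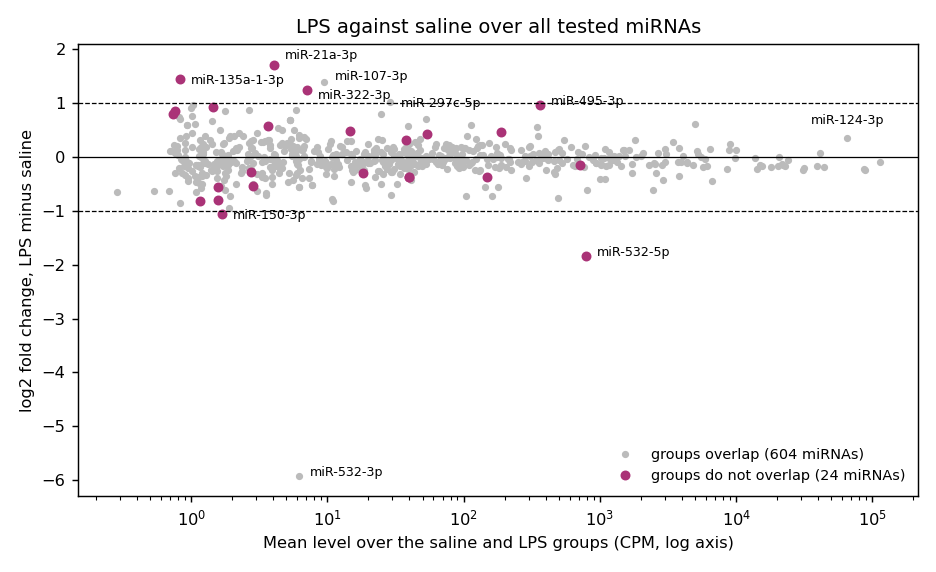
Fitted log2 fold change of LPS minus saline against the mean level in CPM (log axis) for the 628 tested miRNAs, with dashed lines at a log2 fold change of 1 and -1. The 24 miRNAs whose LPS and saline libraries do not overlap are coloured, and miR-21a-3p has the highest value at 1.72.

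The 10 with the highest mean level had log2 fold changes from -0.25 (let-7b-5p) to 0.35 (miR-124-3p). MiR-124-3p, the defining miRNA of neurons, had 41631, 61028 and 68351 CPM with saline and 71606, 65423 and 80516 CPM with LPS. The highest saline library lay above the lowest LPS library, so the groups overlapped, and the 95% interval of the log2 fold change ran from -0.12 to 0.81. The row with the most reads was miR-9b-3p, at 11.5% of reads with saline and 11.4% with LPS. Its mature sequence is the reverse complement of miR-9-5p over 21 bases, and its hairpin lies on the opposite strand of Mir9-2 on chromosome 13. The sources used here do not say whether the authors' counting took strand into account, so the reads of the 2 rows cannot be told apart. Their log2 fold changes were -0.10 and -0.13.

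MiR-21a-3p had the lowest p of all rows. This is the less abundant arm of the miR-21a hairpin, which lies at chr11:86584067-86584158 on the minus strand of GRCm38.p6, in an exon of Vmp1. Its level with saline was 2.01, 2.12 and 1.51 CPM (21, 24 and 15 reads). With LPS it was 5.67, 5.90 and 7.14 CPM (57, 71 and 71 reads). The lowest LPS library lay well above the highest saline library, and the libraries within each group were close together. The fitted log2 fold change was 1.72 with a standard error of 0.30, a 95% interval of 1.04 to 2.40 and an adjusted p of 0.150 in edgeR. Over 19 alternatives its log2 fold change was 1.59 to 1.87 and its adjusted p 0.00169 to 0.682, and 3 of these passed the threshold.

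The 5p arm of the same hairpin, the strand that carries most miR-21 activity, did not share this pattern. Its level was 1521, 1395 and 795 CPM with saline and 1155, 650 and 999 CPM with LPS. The groups overlapped, and the fitted log2 fold change was -0.40 with a standard error of 0.29 and a 95% interval of -1.05 to 0.24.

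The ratio of the arms was also tested. Of 188 precursors with both arms above the filter, miR-21a was the 1 (0.532%) that passed the call rule. Its log2 ratio of 5p to 3p reads was 9.53, 9.33 and 8.99 with saline and 7.66, 6.77 and 7.12 with LPS. The ratio fell by 2.10 on the log2 scale with LPS, with a standard error of 0.28 and an adjusted p of 0.00817 in limma. All 3 LPS libraries were below all 3 saline libraries. In all, 10 of the 188 precursors (5.32%) had no overlap, 5 with LPS below (2.66%) and 5 with LPS above (2.66%), and 5 had an unadjusted p under 0.05 (2.66%). Over 14 alternatives the difference was -2.34 to -1.90 with an adjusted p of 0.00382 to 0.0502, and the call was lost only without LPS replicate 3. The 3p arm rests on 15 to 71 reads per library. These are the same reads as in the single-row test of miR-21a-3p, so the ratio is not independent of that result.

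**Figure D2:**
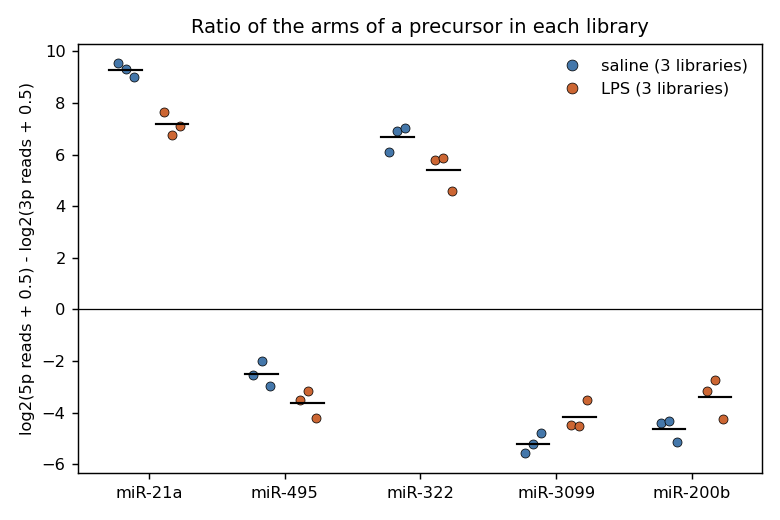
Log2 ratio of 5p to 3p reads (0.5 added to each) in the 3 saline and 3 LPS libraries, for the 5 precursors with the lowest p, with a line at each group mean. For miR-21a the saline libraries lie at 8.99 to 9.53 and the LPS libraries at 6.77 to 7.66.

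The other 4 precursors with the lowest p in the ratio test did not pass the call rule, with adjusted p of 0.666 to 0.955. For miR-495 the log2 ratio of 5p to 3p was -2.53, -1.997 and -2.96 with saline and -3.50, -3.14 and -4.20 with LPS, a difference of -1.12 (SE 0.34). That of miR-322 was 6.11, 6.91 and 7.04 with saline and 5.80, 5.86 and 4.60 with LPS, a difference of -1.27 (SE 0.39). In both, the ratio was lower in all LPS libraries, toward the 3p arm, as in miR-21a. MiR-3099 (1.02, SE 0.40) and miR-200b (1.23, SE 0.53) had the opposite sign, and their LPS libraries lay above all saline libraries.

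MiR-495-3p was the row with the second lowest p. It belongs to the large imprinted cluster on chromosome 12 (Mir495 at chr12:109718754-109718816, plus strand), a group of miRNAs expressed from the maternal chromosome and abundant in brain. Its level was 238.5, 173.5 and 321.2 CPM with saline and 398.8, 425.0 and 609.3 CPM with LPS. All LPS libraries were above all saline libraries. The log2 fold change was 0.97 with a standard error of 0.26 and a 95% interval of 0.39 to 1.54, and the adjusted p was 0.992. MiR-495-5p, the less abundant arm, was at 41.3, 43.4 and 41.2 CPM with saline and 35.1, 48.0 and 33.2 CPM with LPS, a log2 fold change of -0.11. The neighbouring miR-329-3p was at 193, 153 and 125 CPM with saline and 213, 214 and 224 CPM with LPS. Its groups did not overlap either, with a log2 fold change of 0.46 (SE 0.20).

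MiR-322-3p is the less abundant arm of Mir322 (chrX:53054255-53054349, minus strand), the first hairpin of a cluster that also gives miR-503. It was at 6.11, 3.71 and 2.82 CPM with saline and 7.07, 8.22 and 14.7 CPM with LPS, a log2 fold change of 1.24 (SE 0.38, 95% interval 0.40 to 2.08, adjusted p 0.992). LPS replicate 3 was far above the other LPS libraries, and without it the log2 fold change was 0.86. MiR-322-5p, the abundant arm and a member of the miR-15/16 family, was at 426, 451 and 377 CPM with saline and 395, 480 and 356 CPM with LPS. Its log2 fold change was -0.03, with a 95% interval of -0.40 to 0.35.

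MiR-7b-3p was tight within both groups, at 45.7, 46.8 and 44.5 CPM with saline and 58.6, 70.7 and 56.2 CPM with LPS. The log2 fold change was 0.44 (SE 0.16), and its partner arm miR-7b-5p, at 2918 to 5052 CPM, had 0.17 (SE 0.24). MiR-135a-1-3p was rare, with 4, 5 and 5 reads under saline and 6, 21 and 13 reads under LPS. Its fitted log2 fold change of 1.45 (SE 0.53) thus rests on a few reads per library. Of the other rows among the 20 with the lowest p, 4 were higher in all LPS libraries. They were miR-466i-5p (0.92), miR-3097-3p (0.59), miR-7044-3p (0.48) and miR-7236-3p (0.80), at 0.403 to 19.8 CPM. MiR-7236-3p passed the filter through the same libraries as miR-135a-1-3p alone, so the same limit applies to it.

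**Figure D3:**
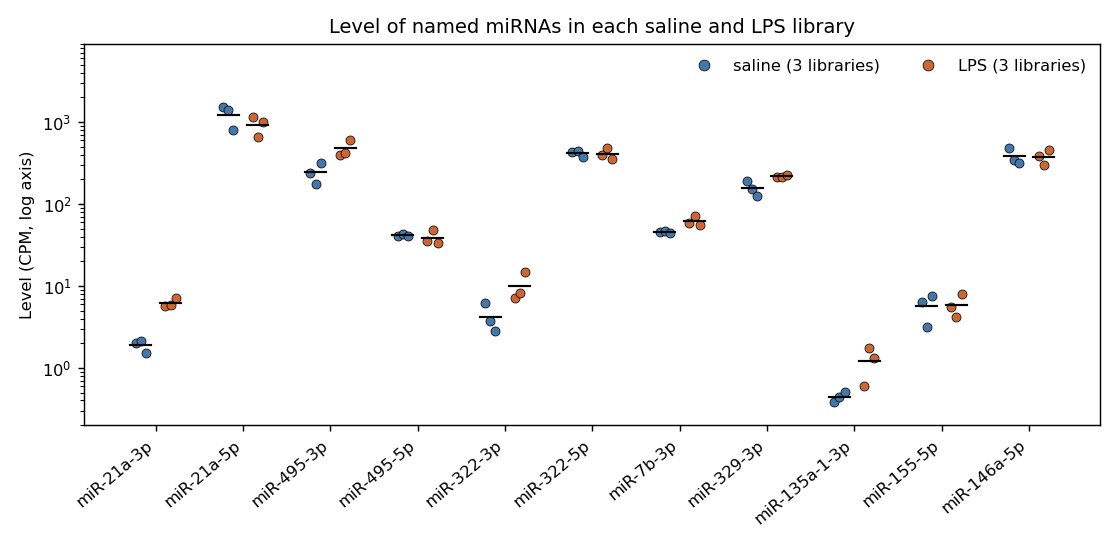
Level in CPM (log axis) of named miRNAs in each saline and LPS library, with a line at each group mean. The LPS points of miR-21a-3p, miR-495-3p, miR-322-3p, miR-7b-3p, miR-329-3p and miR-135a-1-3p all lie above the saline points, and those of the partner arms, miR-155-5p and miR-146a-5p overlap with them.

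Rows lower with LPS among the 20 with the lowest p were mostly rare. MiR-378c was at 2.39, 1.95 and 1.61 CPM with saline and 1.19, 0.914 and 1.31 CPM with LPS, a log2 fold change of -0.80 (SE 0.28). MiR-150-3p, the less abundant arm of the lymphocyte miRNA miR-150, was at 2.77, 1.50 and 2.52 CPM with saline and 1.19, 1.33 and 0.704 CPM with LPS (-1.05, SE 0.46). In both of these, as in miR-6971-3p (-0.81) and miR-3086-3p (-0.53), all LPS libraries lay below all saline libraries. MiR-1983 was the most abundant of the lower rows without overlap among these 20, at 165, 178 and 158 CPM with saline and 111, 127 and 149 CPM with LPS (-0.38, SE 0.18). Its hairpin lies at chr13:21896918-21897049. MiR-32-3p (-0.70), miR-362-3p (-0.94) and miR-3065-5p (-0.64) were lower with overlapping groups.

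The miRNAs linked to TLR4 and NF-kB were examined as a list of 12, of which 9 were tested. None was called, as over all 628 rows (0%). In edgeR 1, miR-21a-3p, had an unadjusted p under 0.05, against 15 (2.39%) over all rows. The list was chosen with earlier results of these data known. The median log2 fold change of the 9 was -0.01, with 4 higher and 5 lower, and with DESeq2's size factors it was 0.04. MiR-155-5p, which macrophages make in quantity after LPS, was at 6.40, 3.18 and 7.56 CPM with saline and 5.57, 4.15 and 8.05 CPM with LPS. The groups overlapped, with a log2 fold change of 0.05 and a 95% interval of -0.72 to 0.82. MiR-155-3p, its other arm, had 0 reads in all 6 libraries, and a count of 0 allows up to 3 reads per library.

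MiR-146a-5p, which restrains TLR signalling through Irak1 and Traf6, was at 484, 341 and 318 CPM with saline and 382, 301 and 451 CPM with LPS. Its log2 fold change was -0.01 with a 95% interval of -0.50 to 0.47. MiR-146b-5p, with the same seed, was at 183 to 226 CPM with saline and 222 to 241 CPM with LPS (0.16, interval -0.20 to 0.52). A doubling lay outside the intervals of miR-155-5p, miR-146a-5p and miR-146b-5p.

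Neuronal miRNAs were abundant in every library. The neuronal list of 10 had a summed level of 128010 to 155338 CPM with saline and 142730 to 163932 CPM with LPS. The median log2 fold change was 0.05, with 6 of 10 higher, against -0.04 over all rows, and with DESeq2's size factors 9 of 10 were higher. MiR-128-3p (0.24), miR-153-3p (0.15) and miR-137-3p (0.02) overlapped between groups, as did the other 7. The 4 arms of miR-132 and miR-212, which CREB induces after neuronal activity, were all higher by 0.09 to 0.26. Their sum was 1056, 1255 and 1107 CPM with saline and 903, 1343 and 1507 CPM with LPS, so LPS replicate 1 was the lowest of the 6 libraries.

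The oligodendrocyte list, miR-219a and miR-338, which drive the differentiation of myelinating cells, was lower in 4 of 4 rows. The list holds miR-219a-5p, miR-219a-2-3p, miR-338-3p and miR-338-5p, with log2 fold changes of -0.72, -0.61, -0.61 and -0.40. Its summed level was 5979, 6004 and 3830 CPM with saline and 3938, 1964 and 4772 CPM with LPS. The groups overlapped, since saline replicate 3 was below 2 of the LPS libraries, and no row had an unadjusted p under 0.05. The median was -0.61 against -0.04 over all rows, and -0.83 to -0.30 with each of the 6 libraries left out, the smallest without LPS replicate 2. In bulk tissue, fewer cells of a type and less RNA per cell cannot be told apart.

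The list for microglia and leukocytes had 6 of 7 rows tested and a median log2 fold change of 0.02, with 3 higher and 3 lower. MiR-142a-3p, made by all blood-derived cells, was at 14.9, 14.7 and 9.88 CPM with saline and 14.6, 9.05 and 18.5 CPM with LPS (0.09, 95% interval -0.62 to 0.81). The myeloid miR-223-3p was at 11.1, 6.90 and 4.03 CPM with saline and 3.78, 5.90 and 7.24 CPM with LPS (-0.38, interval -1.31 to 0.55). MiR-150-5p was at 5288, 5007 and 4906 CPM with saline and 5045, 2547 and 6182 CPM with LPS (-0.14). Each of these overlapped between the groups, and LPS replicate 2 had the lowest level of miR-142a-3p and of miR-150-5p. Most of the summed level of this list was miR-150-5p, with 5288 of 5816 CPM in saline replicate 1.

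Lists for vessels and red cells had medians below 0. The vascular and mural list of 8 (endothelial miR-126a, mural miR-143 and miR-145a, fibroblast miR-199a and miR-214) had a median of -0.25, with 5 lower and 3 higher. Its sum was 18665 to 22974 CPM with saline and 16454 to 20715 CPM with LPS. The erythroid list of 5 had a median of -0.36 and all 5 rows lower, though 2 of them, miR-486a-5p and miR-486b-5p, are a single mature sequence listed under both names with the same reads. MiR-451a, the main miRNA of red cells, was at 3871, 4178 and 1966 CPM with saline and 2197, 2095 and 3173 CPM with LPS (-0.42, 95% interval -1.07 to 0.22). MiR-486a-5p and miR-486b-5p lay lower in all LPS libraries. This sequence, under both names, was the only one of the list without overlap, at 43.3, 49.3 and 40.2 CPM with saline against 31.5, 39.5 and 32.3 CPM with LPS (-0.36, SE 0.22). Over all 628 miRNAs, 12 (1.91%) had all LPS libraries below all saline libraries. The amount of blood left in the tissue was not measured.

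Choroid plexus miRNAs varied more between libraries than between groups. The summed level of the list was 28717, 9233 and 10556 CPM with saline and 21864, 9847 and 9238 CPM with LPS. Saline replicate 1 and LPS replicate 1 were thus more than 2 times the others, and the same 2 libraries led the multiciliated list (miR-34b, miR-34c and miR-449a), at 1609 and 963 CPM against 301 to 529 CPM. MiR-1298-5p, from an intron of Htr2c, went from 127 to 1568 CPM among saline libraries alone. The choroid plexus median was -0.52 with 8 of 9 tested rows lower, and 0.45 without saline replicate 1. The multiciliated median was -0.38 with 5 of 5 lower, and 0.56 without saline replicate 1. Leaving out both libraries numbered 1 gave -0.09 and -0.03. With any 1 of the other 5 libraries left out, the medians stayed between -0.83 and -0.12 and between -0.91 and -0.21.

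Without both libraries numbered 1 miR-21a-3p stood at a log2 fold change of 1.83 (adjusted p 0.682 in edgeR, against 0.150 with them) and the miR-21a arm ratio differed by -2.21. The oligodendrocyte median was -0.62 without them. Plexus and ciliated cells line the ventricle beside the hippocampus, and their part in the levels of other miRNAs, miR-21a-3p included, was not tested.

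Markers of other tissues gave little. Epithelial miRNAs (the miR-200 family and the miR-183 cluster) had a median of -0.01 over 8 rows, with 4 higher and 4 lower, and 0.05 with DESeq2's size factors. The Hox cluster miRNAs miR-10a-5p and miR-10b-5p, which mark hindbrain and spinal cord, were at 8.16 to 14.5 and 3.23 to 11.3 CPM. MiR-196a-5p and miR-196b-5p did not pass the filter. The list for liver, muscle, pancreas and gut had a median of -0.11, and liver-specific miR-122-5p was at 8.47 to 10.7 CPM in the 6 libraries.

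**Figure D4:**
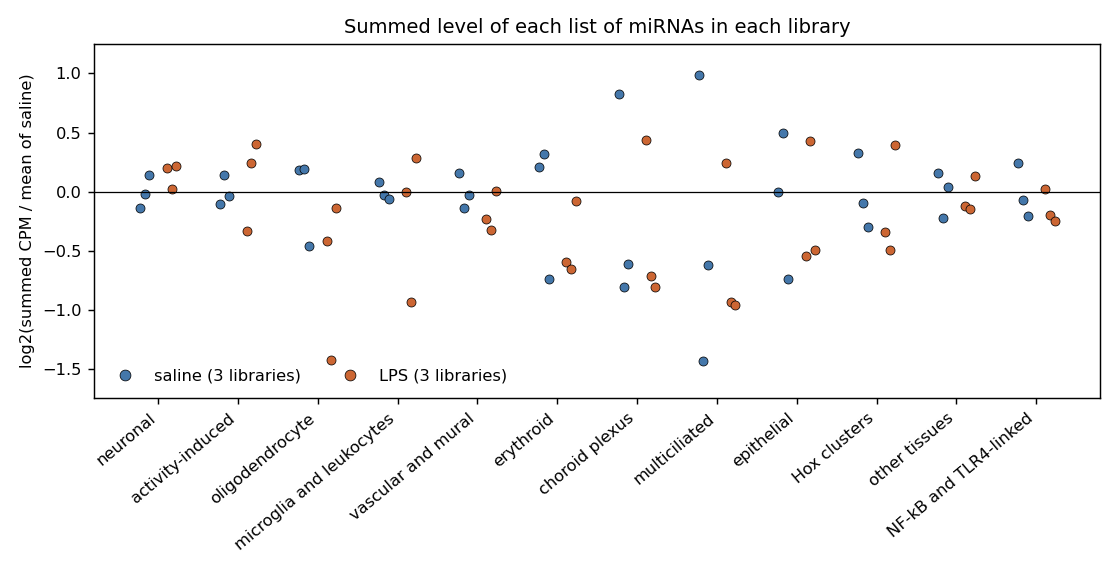
Summed CPM of each list of miRNAs in each library, as log2 of its ratio to the mean of the 3 saline libraries. Saline replicate 1 and LPS replicate 1 are the high points of the choroid plexus and multiciliated lists, and LPS replicate 2 is the low point of the oligodendrocyte list.

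Summed by seed, 0 of 523 families (0%) passed the call rule in edgeR, with 12 at an unadjusted p under 0.05 (2.29%) and 19 without overlap (3.63%). DESeq2's Wald test called 1, the family of miR-21a-3p. The 5 families with the lowest p each had 1 tested row, namely miR-21a-3p, miR-495-3p, miR-322-3p, miR-532-3p and miR-135a-1-3p. The let-7 family, which promotes differentiation, was lower in 9 of 10 rows. Its sum was 306875, 195787 and 284713 CPM with saline and 261642, 173058 and 247570 CPM with LPS, a log2 fold change of -0.21 (SE 0.20). Replicate 2 was the lowest library in each group. The miR-93 family (seed of miR-17) was lower in 5 of 5 rows with -0.25 (SE 0.18), and the miR-34 family in 4 of 4 with -0.17 (SE 0.37). The miR-30 family was higher in 5 of 6 rows with 0.06 (SE 0.15), and the miR-16 family gave 0.11 (SE 0.24) with 2 of 6 rows higher, or 4 of 6 with DESeq2's size factors. In each of these 5 families the groups overlapped.

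Of 51 genomic clusters, 0 (0%) passed in edgeR and 1 had an unadjusted p under 0.05 (1.96%) and no overlap (1.96%). DESeq2's Wald test called 0. The 1 was the cluster from Mir532 to Mir500 in an intron of Clcn5 (chrX:7237683-7248497, minus strand), with 1286, 1375 and 1648 CPM with saline and 179, 1182 and 184 CPM with LPS. Its log2 fold change was -1.48 (SE 0.61, adjusted p 0.979), and -2.95 without LPS replicate 2 (adjusted p 2.84e-06, in a range up to 0.982 over the alternatives). Most of its reads were miR-532-5p, with 11440 of 13462 in saline replicate 1. Its neighbours miR-501-3p (98.2 to 127 CPM with saline, 91.5 to 110 CPM with LPS, -0.15) and miR-500-3p (0.05) overlapped between the groups. MiR-188-5p (-0.19) and miR-362-5p (-0.14) did too. MiR-362-3p, a rare member at 1.08 to 3.27 CPM, was lower by a log2 fold change of -0.94 (95% interval -1.84 to -0.03, unadjusted p 0.0439), also with overlap.

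Next by p were the clusters of Mir199a-2 and Mir214 (-0.63, SE 0.36), Mir15b and Mir16-2 (-0.41, SE 0.26), Mir144 and Mir451a (-0.42, SE 0.28) and Mir99a and Mirlet7c-1 (-0.19, SE 0.14). All of them overlapped between the groups. The imprinted cluster from Mir379 to Mir3072 on chromosome 12, to which miR-495 and miR-329 belong, had 59 tested rows, 24 higher and 35 lower, with a median of -0.04, or 0.01 with DESeq2's size factors. Its sum was 25816 to 32972 CPM with saline and 25456 to 29469 CPM with LPS with overlap. The nearby clusters from Mir770 to Mir136 (12 of 22 higher, median 0.01) and from Mir341 to Mir370 (5 of 5 higher, median 0.18) also overlapped. The cluster of Mir322 was at -0.03 (SE 0.18), and miR-17 to miR-92a-1 and miR-106b to miR-25 were at -0.15 and -0.25.

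Some rows had reads near 0 in part of a group. By the rule used (a median of at least 20 reads over the 6 libraries and under 1/20 of it in at least 1) these were miR-532-5p, miR-744-5p, miR-669c-5p and miR-297c-5p. With saline, miR-532-5p had 11440, 13444 and 14360 reads, and with LPS 29, 12498 and 8. LPS replicate 2 was therefore near the saline level and the other LPS libraries were close to 0. The fitted log2 fold change was -1.84 (SE 1.69, unadjusted p 0.303), and -9.36 without LPS replicate 2, where it was called. MiR-532-3p, the other arm, had 170, 225 and 2 reads with saline and 3, 0 and 3 with LPS. Its fitted log2 fold change of -5.91 (SE 1.98, adjusted p 0.992 in edgeR) rests on saline replicates 1 and 2. The row passed the filter only through these and LPS + GAS replicate 3, which is outside the comparison. Its adjusted p was 0.00671 with no filter on low counts, in a range of 0.00671 to 0.9999 over the alternatives. The low libraries of the arms were not the same, since LPS replicate 2 lacked the 3p arm and held the 5p arm at full level, and saline replicate 3 did the same.

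The 3 other rows showed the same kind of gap inside the saline group. MiR-744-5p, from an intron of Map2k4, had 3015, 4295 and 37 reads with saline and 36, 3290 and 3553 with LPS, and its 3p arm stayed at 278 to 419 reads in all 6. MiR-669c-5p had 4, 297 and 252 reads with saline and 2, 444 and 4 with LPS. MiR-297c-5p had 1, 646 and 0 reads with saline and 3, 909 and 408 with LPS. No library was low in all 4 rows except LPS replicate 1. The fitted log2 fold changes of these 3 were -0.08, -0.46 and 1.03, with standard errors of 1.69, 1.51 and 2.27, so no direction can be read from them. Their unadjusted p values were 0.962, 0.765 and 0.660 in edgeR.

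**Figure D5:**
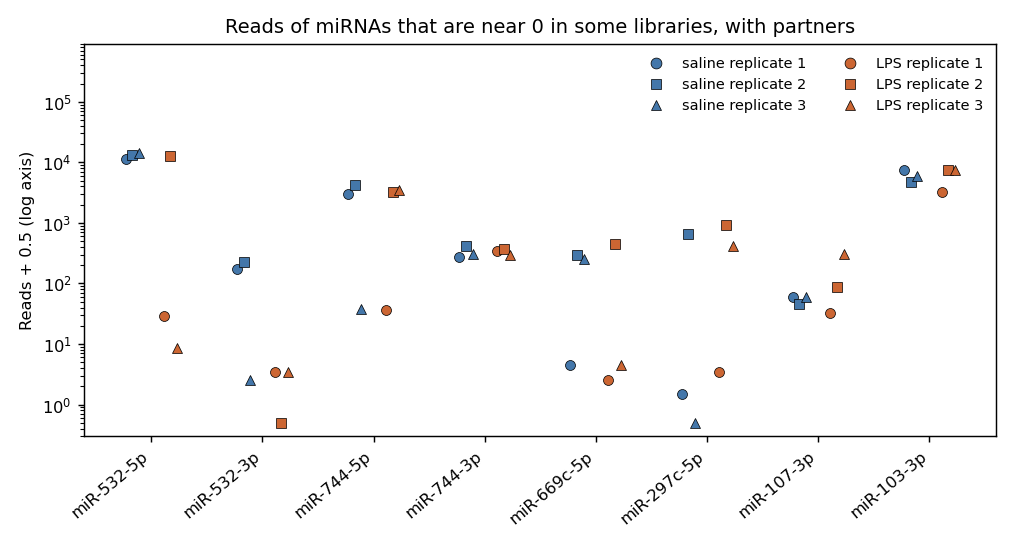
Reads plus 0.5 (log axis) of miRNAs near 0 in some libraries, with partner arms or seed mates, and a marker shape per replicate number. MiR-532-5p is at 11440 to 14360 reads with saline and at 29, 12498 and 8 with LPS, while miR-744-3p stays at 278 to 419 reads in all 6 libraries.

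MiR-107-3p, which the study followed up, was at 5.73, 3.98 and 5.95 CPM with saline and 3.18, 7.23 and 31.0 CPM with LPS. LPS replicate 3 alone lay far above, and LPS replicate 1 was below all saline libraries. The log2 fold change was 1.40 (SE 0.66, adjusted p 0.992), and 0.01 without LPS replicate 3. MiR-103-3p shares its seed and 22 of its 23 bases, and was at 713, 415 and 597 CPM with saline and 324, 611 and 758 CPM with LPS (-0.03, SE 0.30). Reads of a pair this alike can be divided by the counting, so the level of the rarer one is uncertain. The other miR-297 rows, miR-297a-5p (34.4 to 35.4 CPM with saline, 25.1 to 38.0 CPM with LPS, -0.13) and miR-297b-5p (-0.30), overlapped between the groups. MiR-6395 had 43 reads in saline replicate 3 and 0 or 1 in the other 5 libraries, and did not pass the filter. The study picked miR-107-3p, miR-21a-3p, both arms of miR-532, miR-6395 and a miR-297-5p written without a letter on the same samples, so their direction is no independent evidence. Its qRT-PCR is reported to follow the sequencing for miR-107-3p and miR-297-5p alone, without statistical differences, and thus not for miR-21a-3p. All 3 rows of the name miR-297 were therefore given here.

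The precision of the comparison depended on abundance. The 95% interval of the log2 fold change lay wholly between -1 and 1 for 420 of the 628 miRNAs (66.9%), so a doubling or halving was outside the interval for these. That share was 89.2% of 83 miRNAs above 1000 CPM, 80.2% at 100 to 1000 CPM and 80.9% at 10 to 100 CPM. It was 51.1% at 1 to 10 CPM and 2.70% of 37 under 1 CPM. The median standard error was 0.28 overall and 0.51 in the rarest class. MiR-21a-3p, miR-322-3p and the lower rows at 1 to 3 CPM lie in the class of 1 to 10 CPM or near it. Below the filter, 820 rows were not tested. Of these, 4 had a read in every LPS library and none in saline, 2 had the opposite pattern, and in each of the 4 the lowest LPS library had 1 read.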

How the data were processed

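Small RNA libraries of the BGISEQ-500 type were made from hippocampus. The authors deposited a single table of read counts per mature miRNA and library, raw and not normalized, with 1448 rows. The submitters' processing notes name GRCm38.p6, with the aligner, the counter, the miRBase release and the use of strand not given in the sources used here. Beside the read counts the table holds whole-number exp values at or below them, whose making is not stated and which served only as an alternative. The authors' group averages and their comparison columns (log2 fold changes, p-values and q-values of DESeq2) were not used, and 0 columns of single libraries were left unmapped.

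Counts were fitted in R 4.3.3 with edgeR 4.0.16 (TMM, glmQLFit, glmQLFTest) over the 9 libraries with a mean per group, and p-values were adjusted by Benjamini-Hochberg over all rows tested. Rows had at least 10 reads in at least 3 libraries. The kept rows held about 99.99% of reads. Seed families (bases 2 to 8) and clusters (same strand, neighbours at most 10 kb apart) were sums of all rows, scaled by the factors of the single rows. RefSeq hairpins of GRCm38.p6 placed 1209 rows by their precursor sequence, and host genes came from GENCODE. Arm ratios were log2 of (5p + 0.5)/(3p + 0.5) reads, tested with limma 3.58.1. Lists were described by counts and medians without a test. Mature sequences come from the deposited table, and those of miR-532-5p, miR-669c-5p and miR-297c-5p are not in the RefSeq table used, while the others printed are identical there. In 27 rows the mature sequence was shared with another row.

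Rows were named by rule: the 20 with the lowest p, a log2 fold change of 1 or more in either direction, reads near 0 in part of the libraries, the rows the study reported, list members, and the 5 families, clusters and precursors with the lowest p. Further rows, such as partner arms, were added as context for these. The members, lists and rules were chosen with earlier results of these data known. The single-row fits in edgeR, DESeq2 and limma-voom, the seed families and the arm ratios were tested on simulated data. Clusters and list medians were not. Alternatives were DESeq2 1.42.0 size factors and Wald test, limma-voom, robust fitting, other filters (none, or 50 reads), a pseudocount of 1, the replicate number as a block, the 6 libraries alone, the exp values, no minimum fold change, clusters at 50 kb and each library left out in turn. Leaving out both libraries numbered 1 was an alternative added after seeing the data.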

Additional observations from a re-analysis of the deposited data

How the results depend on the processing

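The number of called miRNAs, 0, was 2 with no filter (miR-532-3p and miR-21a-3p) and 1 with DESeq2's Wald test (miR-21a-3p). With each library left out it was 0 to 1, the call being miR-532-5p without LPS replicate 2 and miR-21a-3p without LPS + GAS replicate 3. It was 0 under the other alternatives run. Counts at an unadjusted p under 0.05 (15) were 34 with no filter, 7 with 50 reads and 9 to 23 with a library left out. Counts at a log2 fold change of at least 1 (5) were 158 with no filter, 9 with limma-voom, 9 with the replicate block, 9 without both libraries numbered 1 and 4 to 15 with a library left out. Those of at most -1 (3) were 153, 7 without both libraries numbered 1 and 2 to 17 with a library left out. For families, DESeq2's Wald test called 1, with 7 at p under 0.05 and 5 at a log2 fold change of at least 1 (5 also with its size factors, 7 with the replicate block). With a library left out, families gave 0 to 1 calls, 7 to 19 at p under 0.05, 2 to 14 at 1 or more and 1 to 13 at -1 or less. For clusters, DESeq2's Wald test gave 0 at p under 0.05. Leaving out a library gave 0 to 1 calls, 0 to 2 at p under 0.05 and 1 to 2 at -1 or less. For arm ratios, 50 reads gave 3 at p under 0.05 and 0 at 1 or more, and leaving out both libraries numbered 1 gave 13 at p under 0.05 and 10 at -1 or less. With a library left out, arm ratios gave 0 to 1 calls, 4 to 13 at p under 0.05, 2 to 5 at 1 or more and 2 to 14 at -1 or less.

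Same-numbered saline and LPS libraries had correlations of their deviations of 0.34, 0.22 and -0.26. Deviations from a mean of 3 libraries are tied to one another, so these values cannot decide whether the numbers pair the libraries. With the replicate block, 0 miRNAs and 0 families were called, the miR-21a arm ratio kept its call, and 1 cluster, Mir532 to Mir500, was called (-1.90, adjusted p 0.0393). Of the 3 LPS libraries 2 correlated best with the saline library of their own number, and of the 3 saline libraries 1 did so with LPS.

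The sign of miR-744-5p (-0.08) was reversed with the replicate block (2.07), without both libraries numbered 1 (0.72) and with single libraries left out (-0.69 to 0.59). That of miR-669c-5p (-0.46) was reversed in 3 fits with a library left out (-5.77 to 0.11), and that of miR-297a-5p in 1 (-0.26 to 0.0091). List medians ranged with a library left out from 0.0079 to 0.16 (neuronal), -0.91 to 0.56 (multiciliated) and -0.20 to 0.12 (other tissues). The cause of these shifts was not tested. The median standard error was larger at low levels, at 0.51 under 1 CPM against 0.21 over 1000 CPM. The rows near 0 in part of the libraries had wide intervals at any level.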

Other observations

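Of the 8 miRNAs higher with LPS at an unadjusted p under 0.05, 4 (miR-21a-3p, miR-495-3p, miR-322-3p and miR-7b-3p) have the bases AACA at positions 2 to 5, which was noticed after their values were seen. Of the 628 miRNAs, 13 (2.07%) start their seed in this way. Of these 13, 9 were higher with LPS, but the 9 include the 4 rows that prompted the grouping. Without those 4, 5 of 9 were higher (55.6%, median log2 fold change 0.04). The 615 miRNAs with another seed start had 258 higher (42.0%, median -0.05). With DESeq2's size factors it was 5 of 9 (median 0.11) against 326 of 615 (53.01%, median 0.01). The 5 included miR-543-3p (0.57), miR-218-1-3p (0.75), miR-132-3p (0.19) and miR-212-3p (0.09), whose groups overlapped, and the 4 lower ones were miR-448-5p (-0.26), miR-200a-3p (-0.21), miR-7a-2-3p (-0.14) and miR-7a-1-3p (-0.09). MiR-7a-2-3p has the same seed as miR-7b-3p. The 615 miRNAs with another seed start kept their rows at an unadjusted p under 0.05 in edgeR, 4 higher and 7 lower. The shares of the 9 and of the 615 are thus not on the same footing.

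Several tested rows are reverse complements of another row over at least 18 bases, 17 pairs in all. The pairs include arms of a single hairpin, as for miR-299a (both on the plus strand) and miR-486a, so not all lie on opposite strands. The log2 ratio of reads within a pair ranged over 0.23 (miR-219a-2-3p and miR-219b-5p) to 2.05 (miR-3083-3p and miR-3083b-5p) across the 6 libraries, with a median range of 0.95. The log2 ratio of miR-9-5p to miR-9b-3p was -2.66 to -2.23 with saline and -2.59 to -2.29 with LPS. That of miR-219a-2-3p to miR-219b-5p was 6.13 to 6.33 with saline and 6.10 to 6.33 with LPS. For miR-3065-5p and miR-338-3p, which lie on opposite strands of chromosome 11, it was -8.07 to -7.96 with saline and -8.33 to -7.56 with LPS, and both were lower with LPS, by log2 fold changes of -0.64 and -0.61. The strandedness of the counting was not given in the sources used here.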
